A study of Homo sapiens with 18 samples.

Results

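The transcript response to TRI-611 was followed over all 18 of the 18 libraries in the series, as 9 TRI-611 libraries set against 9 DMSO libraries with the cell line as a block. The libraries came from SNU2535, NCI-H3122 and NCI-H2228, established human lung cancer lines (labelled NSCLC and of genotype WT) that are known to carry EML4-ALK gene fusions. Cells of each line growing in dishes received 3 µM TRI-611 or the solvent DMSO for 3 h, and poly-A RNA was sequenced, with 3 libraries for each of the 6 groups. TRI-611 is called a molecular glue degrader in the title of the study: it is a small molecule that recruits a protein (here the receptor tyrosine kinase ALK) to a ubiquitin ligase for degradation. The labels do not state that replicates came from separate cultures, so every p-value measures the spread between these libraries, which may be technical. In the fit over the 3 lines this spread also holds differences in response between the lines. Expression was given as TPM (transcripts scaled to the same total in every library), a relative unit, so a fall of 1 transcript and a rise of the rest cannot be told apart from TPM alone, and neither can fewer cells and less RNA per cell.

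A gene entered the comparison when, in every line, 3 or more of its 6 TPM values reached 1, which 13186 of the 57500 genes of the table did. Changes are differences in mean log2(TPM + 1), TRI-611 minus DMSO, and they understate the change of weakly expressed genes. The pooled change is 1 value over the 3 lines, and a pooled call is a limma adjusted p under 0.05 for it. A change is called consistent where the pooled call held and the mean difference had the same sign in SNU2535, in NCI-H3122 and in NCI-H2228. Where 3 values follow a gene, they are its changes in SNU2535, NCI-H3122 and NCI-H2228, in that order.

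ALK is a receptor tyrosine kinase that lung epithelium barely expresses, and its fusion to EML4 makes it signal without ligand. Such kinases feed the RAS-RAF-MEK-ERK cascade, the PI3K-AKT pathway and STAT3. ERK activity raises transcripts of immediate early transcription factors and of its own inhibitors, among them the DUSP phosphatases and the Sprouty proteins. AKT holds the FOXO transcription factors outside the nucleus, and FOXO factors that reach the nucleus bind forkhead motifs near genes of growth arrest, cell death and nutrient sensing.

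Libraries of 1 group correlated at r = 0.991 to 0.994 across genes, no 2 libraries were identical, and 23766 to 25921 genes lay above 0 TPM in each. The first 2 principal components held 56.0% and 33.5% of the variance. The epithelial markers EPCAM (117 to 689 TPM) and KRT8 (538 to 1907 TPM) and the lung lineage factor NKX2-1 (80.6 to 458 TPM) were present in every library. The leukocyte gene PTPRC stayed at or below 0.129 TPM, the fibroblast genes COL3A1 and DCN at or below 0.0675 and 0.0119 TPM, and the 5 endothelial markers summed to 2.51 to 13.1 TPM with DMSO and 2.31 to 14.7 TPM with TRI-611. Other markers of these cell types were higher: COL1A1 ran from 10.8 to 393 TPM, LUM from 0 to 212 TPM and CD14 from 1.01 to 8.72 TPM. The 6 fibroblast markers summed to 137 to 393 TPM with DMSO and 148 to 373 TPM with TRI-611. For the 7 immune markers the sums were 3.30 to 12.9 TPM and 1.99 to 13.3 TPM. The share of TPM from mitochondrially encoded genes was 10.8% ± 1.90 with TRI-611 and 9.64% ± 1.62 with DMSO (SD, n = 9 each). The difference of 1.20 percentage points (0.432, 1.40 and 1.77 in the 3 lines) did not pass an exact permutation test within lines (two-sided p = 0.06475, smallest possible 0.00025). The part of this difference in the gene results was not tested, but counts with these genes removed are given below.

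ALK RNA (ENSG00000171094, chromosome 2, 29192774 to 29921566, - strand, build GRCh38) moved little in 3 h. Its libraries measured 22.5, 26.6 and 25.3 TPM with DMSO and 21.7, 21.7 and 20.4 TPM with TRI-611 in SNU2535, 17.3, 15.3 and 15.9 against 15.6, 14.8 and 14.8 TPM in NCI-H3122, and 11.1, 10.9 and 11.1 against 10.7, 11.0 and 10.8 TPM in NCI-H2228. The TRI-611 libraries lay below all DMSO libraries in SNU2535, while the groups overlapped in NCI-H3122 and NCI-H2228. The pooled change was a fall by 0.11 on the log2 scale (-0.11, SE 0.0389, limma adjusted p = 0.0310), with -0.21, -0.09 and -0.02 in the 3 lines. This call rested on SNU2535 and was fragile. Its adjusted p was 0.307 without SNU2535 and 0.0954 without NCI-H3122, 0.0446 with batch as a replicate block and 0.0677 with the replicate block taken line by batch, 0.0678 without the TPM filter, 0.0542 without the mitochondrially encoded genes, and 0.0523 to 0.0665 without SNU2535 DMSO replicate 2 or 3, SNU2535 TRI-611 replicate 2 or 3, or NCI-H3122 DMSO replicate 1. EML4, whose promoter drives the fusion, stood at -0.05, SE 0.0311, limma adjusted p = 0.198 (-0.16, 0.03 and -0.02). RNA does not report ALK protein, which was not measured here.

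Across the tested genes 5676 passed the pooled test (43.0%), 2820 of them higher (21.4%) and 2856 lower (21.7%) with TRI-611. Of these 5068, or 89.3%, kept 1 sign in the 3 lines: 2504 genes rose consistently (19.0% of those tested) and 2564 fell consistently (19.4%). The remaining 608 pooled calls had the opposite sign in 1 line. Among all tested genes 6711 (50.9%) had the same sign in the 3 lines, called or not.

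Most consistent changes were small. The change in a gene's least responsive line had a median of 0.10 among the rises and 0.11 in size among the falls. It reached 0.25 for 413 rises and 466 falls, 0.5 for 78 rises and 97 falls, and 1 for 10 rises and 16 falls. All 9 pairs of a line and a labelled batch moved in the same direction for 1279 of the 2504 rises and 1506 of the 2564 falls, and the mean of each batch did so for 2486 and 2552.

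A stricter reading asked for a call in each line's own limma test. There 386 genes rose (2.93%) and 704 fell (5.34%) in every line. Without the mitochondrially encoded genes these counts were 525 and 623, so that the share of rises among them went from 35.4% to 45.7%. The last reading asked for a pooled call with no overlap between TRI-611 and DMSO libraries in any line, which 811 rises (6.15%) and 1173 falls (8.90%) met. Most genes printed below with their library values were chosen from these, so their lack of overlap was a condition of the choice.

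The 175 genes that changed by 0.5 or more in every line form the core of the shared response. Of the 78 rises 70 were protein coding, as were 85 of the 97 falls. In some line 11 of these rises and 7 of these falls passed the TPM filter through only 1 treatment, CREBRF, SESN3 and CYP1A1 among the rises and DUSP6, SPRY4, CSF2 and CXCL8 among the falls, so their difference there was in part a condition of entry. Over the 13186 tested genes this applied to 158.

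**Figure D1:**
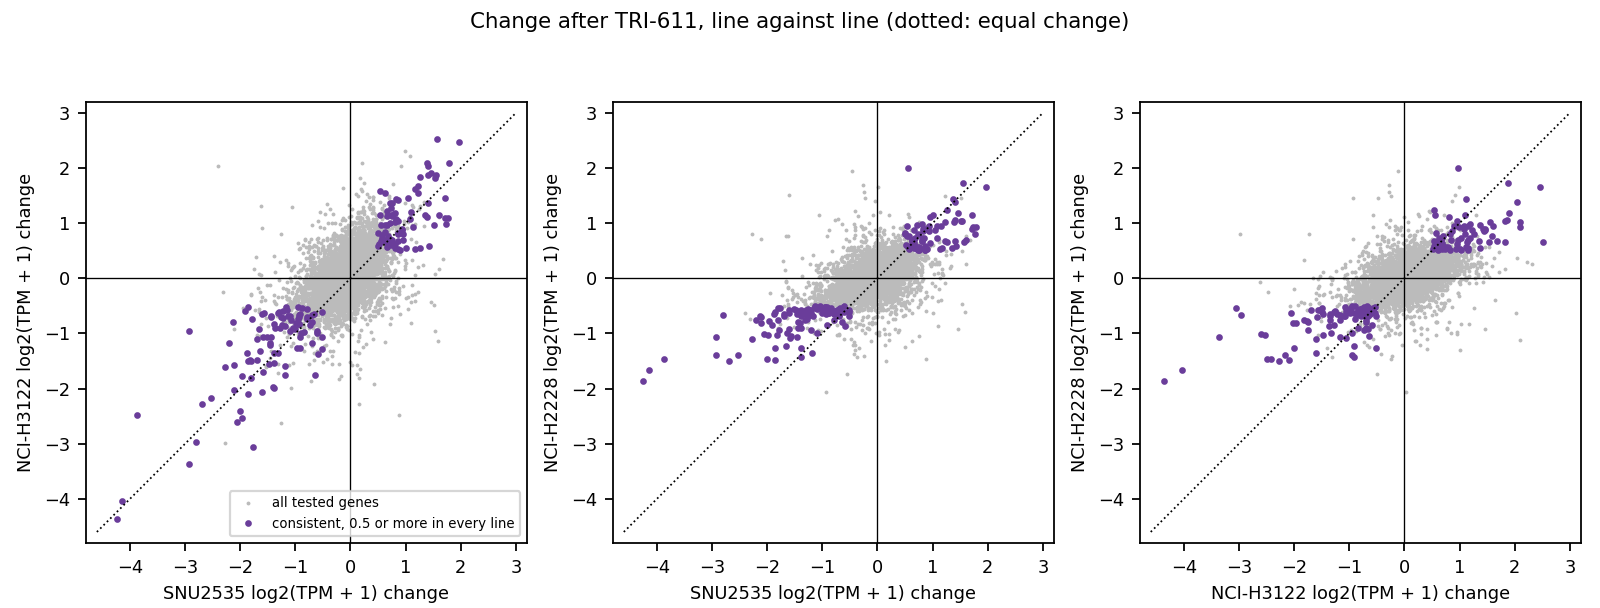
Change in log2(TPM + 1) after TRI-611 of each tested gene (grey) in 1 line against another, with the 175 consistent genes of 0.5 or more in every line in purple and a dotted line of equal change. In the panels with NCI-H2228 on the vertical axis most purple falls lie above the dotted line: of 97 falls 90 were smaller in NCI-H2228 than in SNU2535 and 77 smaller than in NCI-H3122.

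The promoters of this core were read from RefSeq (GRCh38.p14, 250 bases before to 50 after each start). A match by Ensembl identifier, or else by symbol, was found for 61 of the 78 rises and 69 of the 97 falls. Short motifs were searched on both strands in all 8912 tested genes with a promoter and in all 27305 promoters of the table. The forkhead motif, TGTTTAC on either strand, stood in 9 of the 61 promoters of rises (14.8%), in 1 of 69 of the falls (1.45%), in 2.21% of tested genes and in 3.41% of all promoters. The AP-1 motif, TGACTCA on either strand, stood in 7 of the 69 promoters of falls (10.1%) and in 5 of the 61 of rises (8.20%), with 2.95% of tested genes and 4.92% of all promoters. A match is a run of letters and not evidence of binding, and the motif shares were not tested. The forkhead matches of 8 rising genes are shown first because this motif differed most between rises and falls. Bases are written 5′ to 3′ on the gene's strand, with the motif in capitals.
TCP11L2 (chr12:106302491-106302517, + strand): cctcagttccGTAAACActtctcaccc
HBP1 (chr7:107168820-107168846, + strand): atcttctccaGTAAACAcaacacaaaa
YPEL3 (chr16:30096197-30096223, - strand): tgggctcggtGTAAACAagtccaggcg
FRAT1 (chr10:97319229-97319255, + strand): cgtcacccatTGTTTACaaatcaaccc
FRAT2 (chr10:97334741-97334767, - strand): cgtcacccatTGTTTACaaatcaaccc
OTUD1 (chr10:23439036-23439062, + strand): gaggcctgagGTAAACAaccgcggccc
BCL2L11 (chr2:111120681-111120707, + strand): agttactccgGTAAACAcgccagggac
PLEKHM3 (chr2:208025511-208025537, - strand): gaagccgcttGTAAACAgagccgggcc
FRAT1 and FRAT2 are neighbouring paralogs, and their windows hold the same 27 bases, so they are not independent matches. The pooled changes of these genes were 1.52 for TCP11L2, 1.45 for HBP1, 1.24 for YPEL3, 1.35 for FRAT1, 0.86 for FRAT2, 1.22 for OTUD1, 0.87 for BCL2L11 and 0.81 for PLEKHM3.

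The AP-1 matches of 6 falling genes are shown for comparison, again with the motif in capitals.
CXCL8 (chr4:73740422-73740448, + strand): ggaagtgtgaTGACTCAggtttgccct
F3 (chr1:94541953-94541979, - strand): atcactggggTGAGTCAtcccttgcag
MDFI (chr6:41636982-41637008, + strand): cccgtccgggTGACTCAgcccgtgcca
ARRDC4 (chr15:97960574-97960600, + strand): gccaatgaaaTGACTCAgtgaccatct
OSGIN1 (chr16:83953133-83953159, + strand): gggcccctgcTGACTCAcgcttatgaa
PLAUR (chr19:43670339-43670365, - strand): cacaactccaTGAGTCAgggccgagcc
CXCL8 codes for a chemokine (-1.66), F3 for tissue factor (-1.45) and PLAUR for the urokinase receptor (-0.76), and MDFI (-0.98), ARRDC4 (-0.72) and OSGIN1 (-0.85) also fell. Other motifs split differently. The ETS motif CCGGAAG stood in 14.5% of the promoters of falls and 1.64% of those of rises, both below the 21.1% of tested genes. The E-box CACGTG stood in 18.8% and 16.4% with 10.6% of tested genes, the cAMP response element TGACGTCA in 4.35% and 6.56% with 3.50%, the AhR-ARNT motif TNGCGTG in 2.90% and 11.5% with 7.48%, and the CArG box in 1.45% and 3.28% with 1.03%. The AP-1 and cAMP response motifs share letters, and no match says only that the letters are not in this window.

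Transcripts known to depend on ERK were among the deepest consistent falls. DUSP6 (ENSG00000139318, chromosome 12, 89347232 to 89353271, - strand), the phosphatase that switches off ERK, measured 25.2, 28.1 and 28.3 TPM with DMSO and 0.426, 0.499 and 0.539 TPM with TRI-611 in SNU2535, 250.4, 242 and 237 against 12.9, 9.64 and 10.3 TPM in NCI-H3122, and 15.6, 14.1 and 15.8 against 3.23, 3.77 and 3.40 TPM in NCI-H2228. Each TRI-611 library lay far below each DMSO library of its line. The TPM ratio of TRI-611 to DMSO was 0.0179, 0.0451 and 0.228 in the 3 lines, and the pooled change was -3.49, SE 0.285, limma adjusted p = 6.27e-08. SPRY4 (ENSG00000187678, chromosome 5, 142310427 to 142326455, - strand), a Sprouty inhibitor of receptor kinase signalling, measured 19.6, 20.5 and 18.5 TPM with DMSO and 0.119, 0.146 and 0.222 TPM with TRI-611 in SNU2535, 26.2, 24.8 and 24.8 against 0.665, 0.518 and 0.603 TPM in NCI-H3122, and 16.6, 17.0 and 17.0 against 4.86, 4.26 and 4.93 TPM in NCI-H2228. SPRY4 started from a like level in the 3 lines and ended near 0 in SNU2535 and NCI-H3122 but between 4.26 and 4.93 TPM in NCI-H2228 (pooled change -3.28, SE 0.282, limma adjusted p = 1.13e-07).

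All 10 tested genes of a published MAPK output signature, a set of transcripts read as a gauge of ERK activity, fell consistently (19.4% of tested genes did). Of these 2 passed the TPM filter in some line through DMSO alone. In every line by its own test 8 of the 10 fell, beside 5.34% of all tested genes. The median pooled change of the 10 was -1.30 beside 0.01 over all tested genes. It was -1.76 in SNU2535, -1.29 in NCI-H3122 and -0.85 in NCI-H2228. Besides DUSP6 and SPRY4 these were the cell death regulator PHLDA1 (-3.88, -2.49 and -1.45), the ephrin receptor EPHA2 (-2.69, -2.27 and -1.50), DUSP4 (-1.82, -1.48 and -1.03), SPRY2 (-1.70, -1.10 and -0.67), EPHA4 (-1.64, -1.04 and -0.39), the cyclin CCND1 (-1.25, -0.85 and -0.67) and the ETS factors ETV5 (-1.05, -0.94 and -0.48) and ETV4 (-0.24, -0.27 and -0.16). ETV4 changed least. EPHA2 (ENSG00000142627, chromosome 1, 16124337 to 16156087, - strand) was the most abundant of them to fall by more than 1 in every line, with 283, 312 and 281 TPM with DMSO and 44.0, 44.9 and 44.0 TPM with TRI-611 in SNU2535, 255, 239 and 255 against 56.0, 49.3 and 47.6 TPM in NCI-H3122, and 332, 351 and 367 against 114, 127 and 129 TPM in NCI-H2228. Its pooled change was -2.15, SE 0.125, limma adjusted p = 1.50e-09. The signature was derived elsewhere, but its fall in these libraries was known when it was chosen here.

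**Figure D2:**
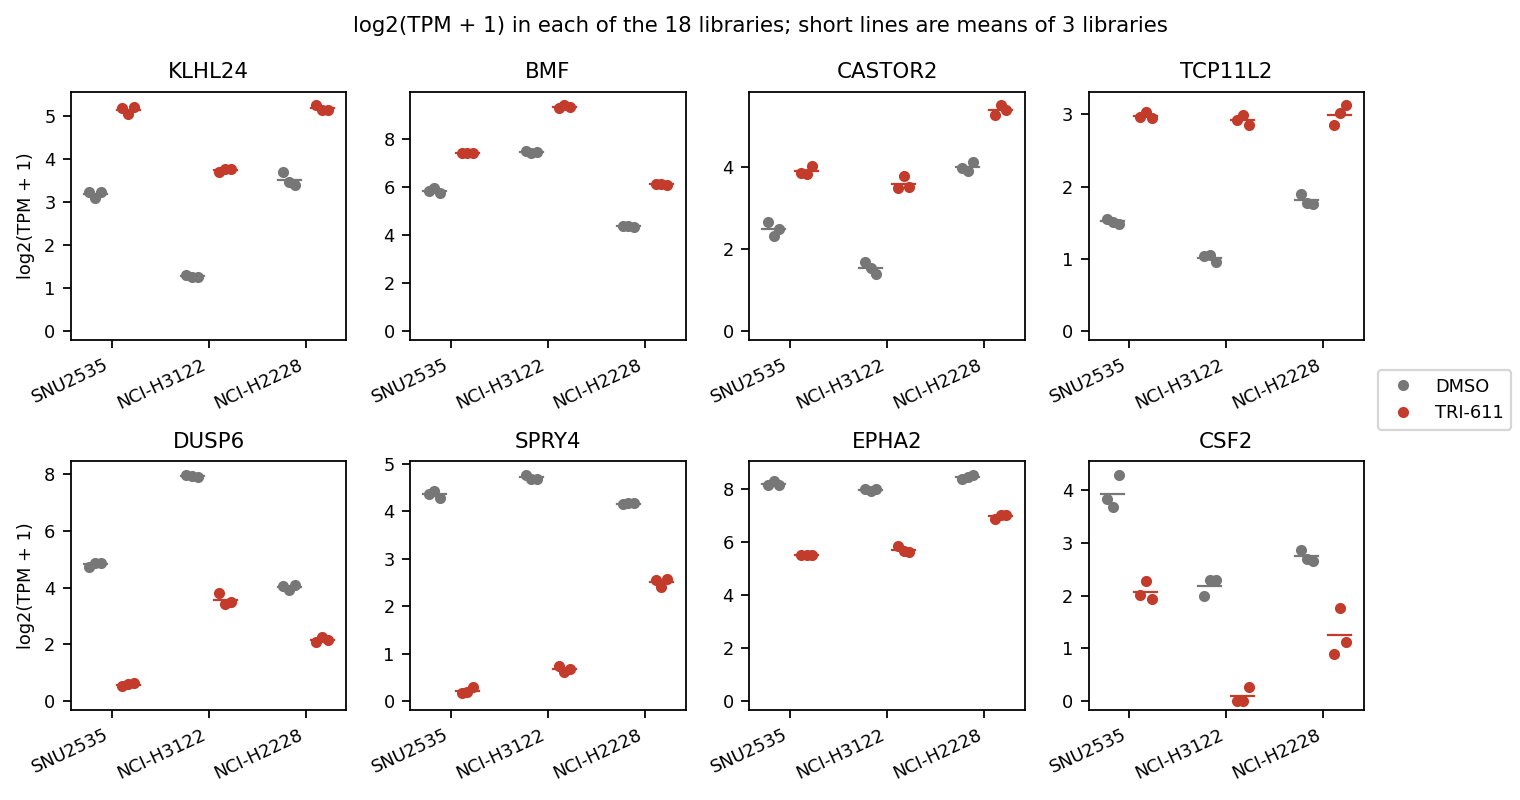
log2(TPM + 1) of the 4 leading rises (top) and 4 leading falls (bottom) in each of the 18 libraries, grey for DMSO and red for TRI-611, with the mean of 3 libraries as a short line. The red and grey points of a line do not overlap in any panel, which was a condition for choosing these genes. The vertical scale differs between panels.

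Of 21 tested feedback inhibitors outside that signature 10 fell and 4 rose consistently (47.6% and 19.0%, beside 19.4% and 19.0% of all tested genes), with a median pooled change of -0.24. DUSP2 passed the TPM filter in some line through DMSO alone. The falls were led by the phosphatases DUSP5 (-1.77, -3.05 and -0.54), DUSP2 (-2.21, -1.17 and -0.76) and DUSP7 (-1.80, -1.49 and -0.53), the RAF brakes SPRED1 (-1.70, -1.47 and -0.65) and SPRED2 (-1.73, -0.57 and -0.30), and the EGFR inhibitor ERRFI1 (-1.54, -1.61 and -0.37). The rises were LRIG3 (0.63, 0.85 and 0.69), LRIG1 (0.43, 0.71 and 0.18), the ubiquitin ligase CBLB (0.25, 0.49 and 0.40) and the phosphatase DUSP16 (0.11, 0.22 and 0.24). DUSP1, which many stresses induce, stood at 0.67, 0.19 and -0.19 and was not consistent.

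Immediate early factors fell more often than they rose, with 18 consistent falls and 3 rises among 32 tested (median -0.25). These are 56.2% and 9.38%, beside 19.4% and 19.0% of all tested genes. FOSL1 (ENSG00000175592, chromosome 11, 65892049 to 65900573, - strand), an AP-1 subunit, measured 435, 421 and 404 TPM with DMSO and 53.9, 59.9 and 49.1 TPM with TRI-611 in SNU2535, 184, 181 and 176 against 18.7, 14.5 and 16.9 TPM in NCI-H3122, and 891, 916 and 873 against 413, 431 and 439 TPM in NCI-H2228. It fell furthest in NCI-H3122 and least in NCI-H2228, where its DMSO level was highest. Its TPM ratios were 0.129, 0.0924 and 0.479, with a pooled change of -2.45, SE 0.247, limma adjusted p = 5.93e-07. MAFF (-1.60, -2.06 and -0.62), MYC (-1.57, -0.64 and -1.04), IER3 (-1.22, -0.80 and -0.34), FOS (-0.93, -0.66 and -0.55), JUN (-0.26, -0.70 and -0.70) and SRF (-0.87, -0.48 and -0.26) fell as well. The nuclear receptor NR4A2 (1.01, 0.55 and 1.16), BTG2 (0.16, 0.63 and 0.54) and JUND (0.09, 0.30 and 0.40) rose. MYC (ENSG00000136997), the transcription factor of growth programmes, measured 188, 207 and 214 TPM with DMSO and 65.3, 68.0 and 69.4 TPM with TRI-611 in SNU2535, 421, 416 and 427 against 273, 264 and 275 TPM in NCI-H3122, and 118, 115 and 126 against 56.9, 56.7 and 58.8 TPM in NCI-H2228, with no overlap in any line (-1.08, SE 0.0965, limma adjusted p = 1.66e-07).

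Of 18 tested growth factor ligands 10 fell and 1 rose consistently (median -0.34). These are 55.6% and 5.56%, beside 19.4% and 19.0% of all tested genes. Ligands of the EGF receptor led: AREG (-2.80, -2.97 and -0.66), HBEGF (-2.53, -2.17 and -1.38), EREG (-2.05, -2.61 and -1.02) and TGFA (-1.46, -1.22 and -0.65). HBEGF (ENSG00000113070, chromosome 5, 140332843 to 140346631, - strand) measured 51.6, 48.5 and 51.4 TPM with DMSO and 8.83, 8.18 and 6.83 TPM with TRI-611 in SNU2535, 9.48, 11.1 and 10.3 against 1.79, 1.37 and 1.40 TPM in NCI-H3122, and 39.5, 41.1 and 43.8 against 16.5, 14.1 and 15.2 TPM in NCI-H2228. All TRI-611 libraries lay below the DMSO libraries of their line, and the pooled change was -2.03, SE 0.126, limma adjusted p = 2.41e-09. The angiogenic factor VEGFA (-1.20, -1.75 and -0.94), the cytokine LIF (-1.62, -2.08 and -0.50) and PTHLH (-1.12, -1.57 and -0.17) fell, and BMP2 (0.59, 0.07 and 0.48) rose. Ligand transcripts are not secreted protein, which was not measured here.

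Of 26 tested receptor kinases and docking proteins 10 rose and 6 fell consistently (38.5% and 23.1%, beside 19.0% and 19.4% of all tested genes). The adaptor GRB7 (1.51, 0.96 and 1.03), the HER3 receptor ERBB3 (0.87, 0.95 and 0.34), the docking protein GAB1 (0.72, 0.72 and 0.57), the insulin receptor INSR (0.66, 0.94 and 0.39), IGF1R (0.19, 0.70 and 0.33) and ERBB2 (0.37, 0.58 and 0.15) rose. The insulin receptor substrates IRS1 (-1.50, -0.86 and -0.31) and IRS2 (-1.21, -0.98 and -0.47) and EGFR (-0.29, -0.56 and -0.17) fell. GRB7 was among the 12 leading rises of all tested genes, with a pooled change of 1.17, SE 0.0719, limma adjusted p = 1.50e-09.

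The cytokines CSF2 and CXCL8 and the immune ligand CD274 fell in every line. CSF2 (ENSG00000164400, chromosome 5, 132073790 to 132076170, + strand), the growth factor GM-CSF, measured 13.2, 11.9 and 18.6 TPM with DMSO and 3.05, 3.85 and 2.84 TPM with TRI-611 in SNU2535, 2.96, 3.90 and 3.91 against 0, 0 and 0.207 TPM in NCI-H3122, and 6.34, 5.51 and 5.32 against 0.864, 2.38 and 1.18 TPM in NCI-H2228. Its listing at 0 in 2 of the NCI-H3122 TRI-611 libraries allows no fold there, and the pooled change was -1.82, SE 0.124, limma adjusted p = 4.48e-09. CXCL8 (ENSG00000169429, chromosome 4, 73740506 to 73743716, + strand) measured 20.7, 21.0 and 23.5 TPM with DMSO and 4.40, 3.11 and 3.64 TPM with TRI-611 in SNU2535, 4.20, 3.54 and 3.75 against 0.514, 0.607 and 0.644 TPM in NCI-H3122, and 45.0, 43.8 and 41.7 against 19.0, 19.7 and 20.9 TPM in NCI-H2228, a pooled change of -1.66, SE 0.127, limma adjusted p = 2.32e-08. CD274 (ENSG00000120217, chromosome 9, 5450503 to 5470566, + strand), the checkpoint ligand PD-L1, measured 25.9, 25.4 and 28.4 TPM with DMSO and 9.37, 8.89 and 10.2 TPM with TRI-611 in SNU2535, 18.2, 17.6 and 16.5 against 3.42, 3.44 and 4.04 TPM in NCI-H3122, and 13.6, 14.3 and 15.4 against 4.96, 5.13 and 6.28 TPM in NCI-H2228. Its fall was of like size in SNU2535 and NCI-H2228 and larger in NCI-H3122 (-1.55, SE 0.0895, limma adjusted p = 7.76e-10). Of the 11 tested chemokine and NF-kB genes 6 fell and 2 rose (54.5% and 18.2%, beside 19.4% and 19.0% of all tested genes). Among the 29 listed, 18 did not pass the TPM filter. CSF2, CXCL8 and TNFAIP3, 3 of the 6 falls, passed it in some line through DMSO alone. The NF-kB inhibitors TNFAIP3 (-1.44, -0.69 and -0.80) and NFKBIE (-0.42, -0.43 and -0.45) fell, and NFKBIA (0.42, 0.26 and 0.06) and BIRC3 (0.47, 0.08 and 0.14) rose.

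The leading consistent rises were KLHL24, BMF, CASTOR2, TCP11L2, CCNG2, CREBRF, HBP1, FBXO32, PNRC1, TP53INP1, GRB7 and YPEL3, ranked by the change in the least responsive line. KLHL24 (ENSG00000114796, chromosome 3, 183635568 to 183684477, + strand), an adaptor of a ubiquitin ligase, measured 8.37, 7.51 and 8.44 TPM with DMSO and 35.1, 32.1 and 36.2 TPM with TRI-611 in SNU2535, 1.49, 1.39 and 1.41 against 11.9, 12.6 and 12.7 TPM in NCI-H3122, and 12.0, 9.96 and 9.45 against 36.9, 34.3 and 34.1 TPM in NCI-H2228. Its TPM ratio was 4.25, 8.69 and 3.36, the largest in NCI-H3122 where the DMSO level was lowest (2.03, SE 0.0897, limma adjusted p = 2.32e-11). BMF (ENSG00000104081, chromosome 15, 40087890 to 40108892, - strand), a BH3-only protein that promotes cell death, measured 55.7, 60.8 and 53.6 TPM with DMSO and 167, 172 and 167 TPM with TRI-611 in SNU2535, 179, 171 and 175 against 626, 674 and 636 TPM in NCI-H3122, and 20.0, 19.7 and 19.4 against 69.5, 68.0 and 66.2 TPM in NCI-H2228. The ratios of BMF were close to each other at 2.98, 3.69 and 3.45, although its DMSO level differed between lines by far more (1.72, SE 0.0389, limma adjusted p = 1.64e-15). BMF still passed the test of a difference in response between lines (limma adjusted p = 0.00213).

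Most tested members of a list of FOXO targets, which also holds the factors FOXO1, FOXO3 and FOXO4, rose. The members were chosen with earlier results of these data known, so the share that rose may owe in part to that choice. Of 33 tested members 25 rose consistently and 2 fell, beside 19.0% and 19.4% of all tested genes. In every line by its own test 18 of the 33 rose, beside 2.93% of all tested genes. The median pooled change of the 33 was 0.51, with 0.33 in SNU2535, 0.62 in NCI-H3122 and 0.39 in NCI-H2228. Of these members 3 passed the TPM filter in some line through only 1 treatment. CCNG2 (ENSG00000138764, chromosome 4, 77157151 to 77433388, + strand), an atypical cyclin of arrested cells, measured 21.2, 23.1 and 22.9 TPM with DMSO and 59.3, 60.4 and 59.7 TPM with TRI-611 in SNU2535, 24.2, 23.4 and 24.4 against 52.1, 57.1 and 50.0 TPM in NCI-H3122, and 4.28, 3.52 and 3.64 against 13.0, 11.0 and 12.3 TPM in NCI-H2228. It was the 1 of the 12 leading rises with its highest change in NCI-H2228 (1.38, 1.11 and 1.45; pooled change 1.31, SE 0.0512, limma adjusted p = 4.75e-12). The PI3K inhibitor PIK3IP1 (1.78, 2.09 and 0.93), the ubiquitin ligase subunit FBXO32 (1.53, 1.82 and 1.03), YPEL3 (1.16, 1.61 and 0.95), the death ligand TNFSF10 (1.36, 1.16 and 0.55), the pyruvate dehydrogenase kinase PDK4 (1.26, 0.55 and 1.25), the sestrin SESN3 (0.66, 1.23 and 0.88) and the BH3-only gene BCL2L11 (1.13, 0.94 and 0.54) rose too. So did transcripts of the factors FOXO1 (0.48, 0.62 and 0.51), FOXO3 (0.28, 0.60 and 0.27) and FOXO4 (0.33, 0.79 and 0.42), members of the same list. IRS2, which the list holds as a FOXO target, fell (-0.89, SE 0.0863, limma adjusted p = 3.71e-07).

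In a list of TORC1 and PI3K regulators, many of which signal amino acid shortage or oppose AKT, 10 of 22 tested rose and 3 fell. Those shares were 45.5% and 13.6%, beside 19.0% and 19.4% of all tested genes. Not every member is a brake, as the list also holds PI3K regulatory subunits such as PIK3R3 and the pseudokinase TRIB2. CASTOR2 (ENSG00000274070, chromosome 7, 74964818 to 75024798, + strand), an arginine sensor relative that restrains TORC1, measured 5.35, 4.01 and 4.64 TPM with DMSO and 13.3, 13.2 and 15.1 TPM with TRI-611 in SNU2535, 2.20, 1.93 and 1.64 against 10.2, 12.6 and 10.4 TPM in NCI-H3122, and 14.5, 13.9 and 16.3 against 37.3, 44.0 and 40.6 TPM in NCI-H2228. No TRI-611 library of CASTOR2 overlapped its line's DMSO libraries (1.61, SE 0.0934, limma adjusted p = 7.76e-10). CASTOR2 has near-identical copies nearby in the genome, and how reads were divided among them is not given in the sources used here. TSC1 (0.34, 0.55 and 0.45), PIK3R3 (0.50, 0.63 and 0.27) and DEPDC5 (0.16, 0.25 and 0.13) rose and the pseudokinase TRIB2 (-1.87, -1.36 and -0.64) fell. Autophagy and lysosome genes rose in 22 and fell in 3 of 42 tested (52.4% and 7.14%), with a small median of 0.10. They included GABARAPL1 (0.76, 1.37 and 0.54), ULK1 (0.57, 1.28 and 0.25), FNIP1 (0.64, 0.70 and 0.59), ATG14 (0.66, 0.56 and 0.54) and NBR1 (0.50, 0.84 and 0.23) among the rises, and ATG16L1 (-0.55, -0.54 and -0.32), TFEB (-0.45, -0.15 and -0.31) and TFE3 (-0.19, -0.16 and -0.07) as the falls.

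**Figure D3:**
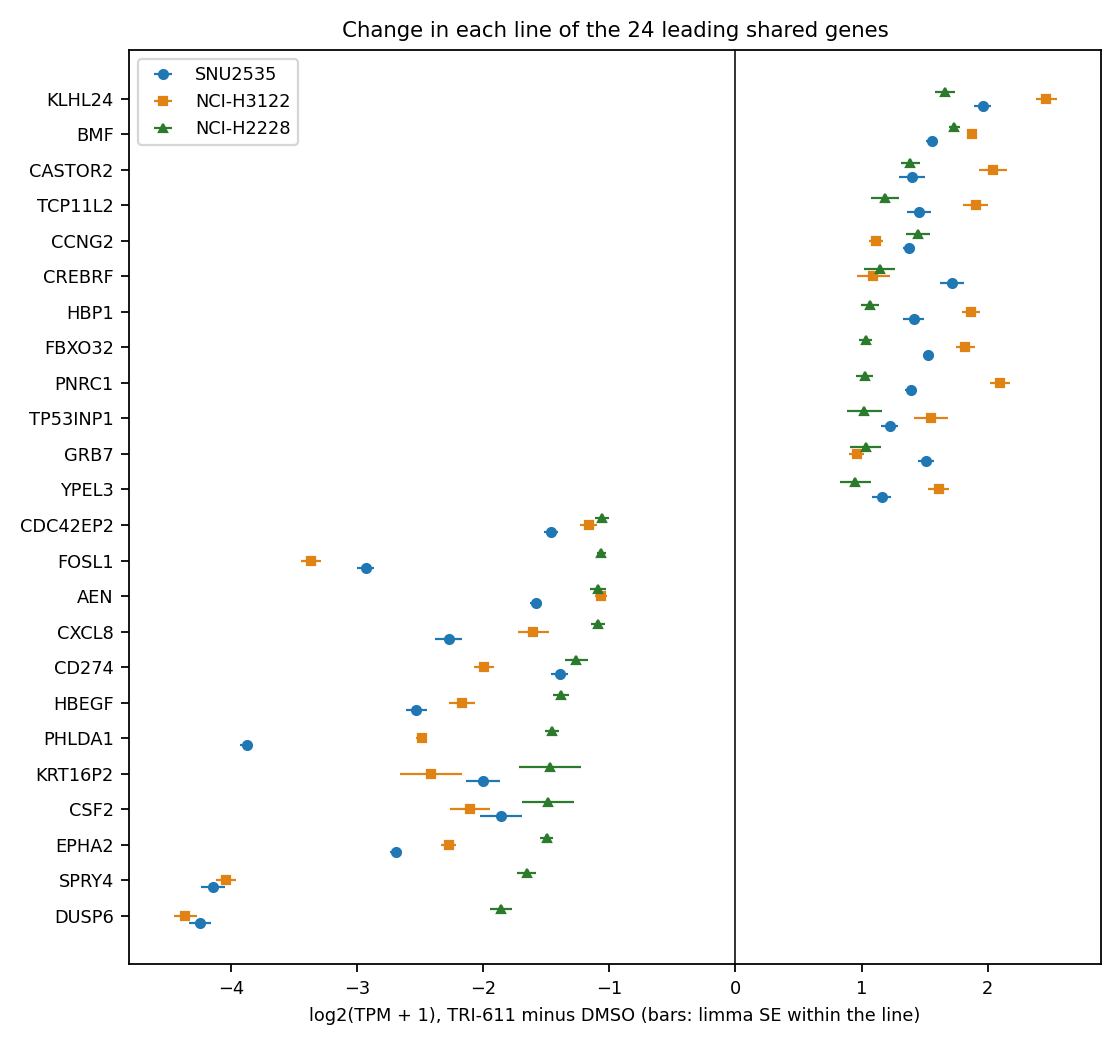
Change in log2(TPM + 1), TRI-611 minus DMSO, of the 12 leading rises and 12 leading falls in each line, with bars for limma's standard error within the line. The falls of DUSP6 and SPRY4 exceed 4 in SNU2535 and NCI-H3122 and stay under 2 in NCI-H2228, while the rises of a gene differ less between lines.

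In the BCL2 family, which governs mitochondrial cell death, promoters and blockers of death moved apart for some members. BMF, BBC3 (0.83, 1.44 and 0.85) and BCL2L11 rose in every line, and the survival genes MCL1 (-0.61, -0.95 and -0.50) and BCL2L1 (-0.88, -0.54 and -0.63) fell. The 15 tested members held 4 rises and 8 falls (26.7% and 53.3%, median -0.12), beside 19.0% and 19.4% of all tested genes. The death promoters BAK1 (-0.32, -0.57 and -0.33) and PMAIP1 (-0.39, -0.41 and -0.28) fell as well, so the direction did not follow a member's role throughout. Of 22 tested p53 targets 7 rose and 11 fell (31.8% and 50.0%). TP53INP1 (1.22, 1.55 and 1.02) went upward and PLK3 (-1.97, -1.77 and -0.77), AEN (-1.58, -1.07 and -1.09) and TIGAR (-0.94, -0.83 and -0.60) downward.

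Several inhibitors of the cell cycle rose. CDKN1B (ENSG00000111276, chromosome 12, 12715058 to 12722371, + strand), the CDK inhibitor p27, measured 128, 130.4 and 136 TPM with DMSO and 253, 249.7 and 249.6 TPM with TRI-611 in SNU2535, 149, 138 and 146 against 263, 276 and 252 TPM in NCI-H3122, and 93.2, 83.3 and 89.0 against 164, 158 and 161 TPM in NCI-H2228. Its change was nearly equal in the 3 lines (0.93, 0.87 and 0.86; pooled 0.89, SE 0.0258, limma adjusted p = 4.92e-14). HBP1 (ENSG00000105856, chromosome 7, 107168961 to 107202529, + strand), a transcriptional repressor of cell cycle genes, measured 19.8, 15.1 and 17.4 TPM with DMSO and 47.6, 48.2 and 47.8 TPM with TRI-611 in SNU2535, 6.85, 5.64 and 6.30 against 25.5, 26.4 and 24.5 TPM in NCI-H3122, and 12.1, 10.9 and 11.0 against 26.6, 23.2 and 24.6 TPM in NCI-H2228 (pooled 1.45, SE 0.0914, limma adjusted p = 2.55e-09). Of the 16 tested CDK inhibitors and related genes 8 rose and 1, CDKN1A (-0.28, -0.15 and -0.76), fell. These are 50.0% and 6.25%, beside 19.0% and 19.4% of all tested genes. Among 29 tested G1/S genes 4 rose and 9 fell (13.8% and 31.0%). Their median pooled change was -0.02, close to 0, and its sign changed under 6 alternative settings. CCNE1 (-0.91, -0.80 and -0.43), CDC25A (-0.95, -0.53 and -0.31) and CCND3 (-0.65, -0.45 and -0.42) were lower and E2F2 (0.40, 0.75 and 0.54) higher.

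Genes of G2 and mitosis rose in 22 of 35 tested and fell in 0 by the pooled limma test (22 and 0 at an unadjusted p under 0.05), with a median of 0.25. The 22 rises are 62.9% of the list, while 19.0% of all tested genes rose and 19.4% fell. The rise sat mostly in NCI-H3122, where the median was 0.56 beside 0.10 in SNU2535 and 0.14 in NCI-H2228. Of the 35 genes 32 passed the test of a difference in response between lines, beside 28.2% of all tested genes. TTK (ENSG00000112742, chromosome 6, 80003887 to 80042527, + strand), a spindle checkpoint kinase, measured 17.1, 16.8 and 18.5 TPM with DMSO and 23.2, 26.9 and 26.4 TPM with TRI-611 in SNU2535, 62.1, 61.3 and 61.4 against 107, 124 and 119 TPM in NCI-H3122, and 18.8, 18.1 and 17.6 against 26.2, 26.0 and 25.6 TPM in NCI-H2228 (pooled 0.64, SE 0.0564, limma adjusted p = 9.65e-08). CENPF (0.31, 1.12 and 0.44), KIF20A (0.47, 1.14 and 0.22), CKAP2 (0.32, 1.04 and 0.25) and NUSAP1 (0.26, 0.50 and 0.15) also rose in every line.

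Genes of ribosome assembly, the list with the most tested members, gave the largest number of falls among the 35 lists. By share (87.2%) they came after the MAPK output signature (100%), beside 19.4% of all tested genes. Of 86 tested genes for ribosome assembly and RNA polymerase I 75 fell consistently and 0 rose by the pooled limma test (75 and 0 at an unadjusted p under 0.05), and 51 fell in every line (background 5.34%). Their median was -0.31, with -0.43 in SNU2535, -0.32 in NCI-H3122 and -0.23 in NCI-H2228. NIP7 (ENSG00000132603, chromosome 16, 69337996 to 69343111, + strand), a factor of 60S subunit assembly, measured 108, 105 and 104 TPM with DMSO and 54.0, 57.8 and 53.2 TPM with TRI-611 in SNU2535, 84.5, 85.7 and 81.6 against 45.7, 48.0 and 47.5 TPM in NCI-H3122, and 150.0, 146 and 147 against 91.3, 97.7 and 93.2 TPM in NCI-H2228. The TRI-611 libraries lay below the DMSO libraries in each line (-0.80, SE 0.0355, limma adjusted p = 2.32e-11). RRS1 (-1.78, -0.74 and -0.94), NOP2 (-1.26, -0.70 and -0.56), the polymerase I subunit CD3EAP (-0.89, -0.99 and -0.63), BYSL (-1.30, -0.62 and -0.57), WDR43 (-1.22, -0.60 and -0.58), NOP16 (-1.10, -0.69 and -0.55) and BRIX1 (-1.13, -0.68 and -0.51) fell by more than 0.5 in every line. Of the 79 cytosolic ribosomal protein genes 4 rose and 0 fell consistently by limma (11 and 1 at an unadjusted p under 0.05), and their median was 0.04. The 4 rises are 5.06% of them, below the 19.0% of all tested genes.

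Other genes that feed protein synthesis fell by small amounts. Their shares are set beside the 19.4% of all tested genes that fell and the 19.0% that rose consistently. Of 44 tested tRNA synthetase and translation factor genes 28 fell and 2 rose (63.6% and 4.55%, median -0.13). EIF3J (-0.56, -0.45 and -0.32) and FARSA (-0.55, -0.38 and -0.26) fell furthest. Of 28 nucleotide synthesis genes 13 fell and 1 rose (46.4% and 3.57%). PPAT (-0.98, -0.34 and -0.37), the entry enzyme of purine synthesis, and CTPS1 (-0.78, -0.43 and -0.38) led the falls. Of 28 cytosolic chaperones 19 fell and 3 rose (67.9% and 10.7%, median -0.15). DNAJB1 (-0.90, -0.46 and -0.29), HSPA8 (-0.48, -0.24 and -0.29) and CCT2 (-0.42, -0.36 and -0.22) were lower, while DNAJB4 (1.25, 1.26 and 0.50) and the factor HSF2 (0.44, 0.61 and 0.28) were higher.

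**Figure D4:**
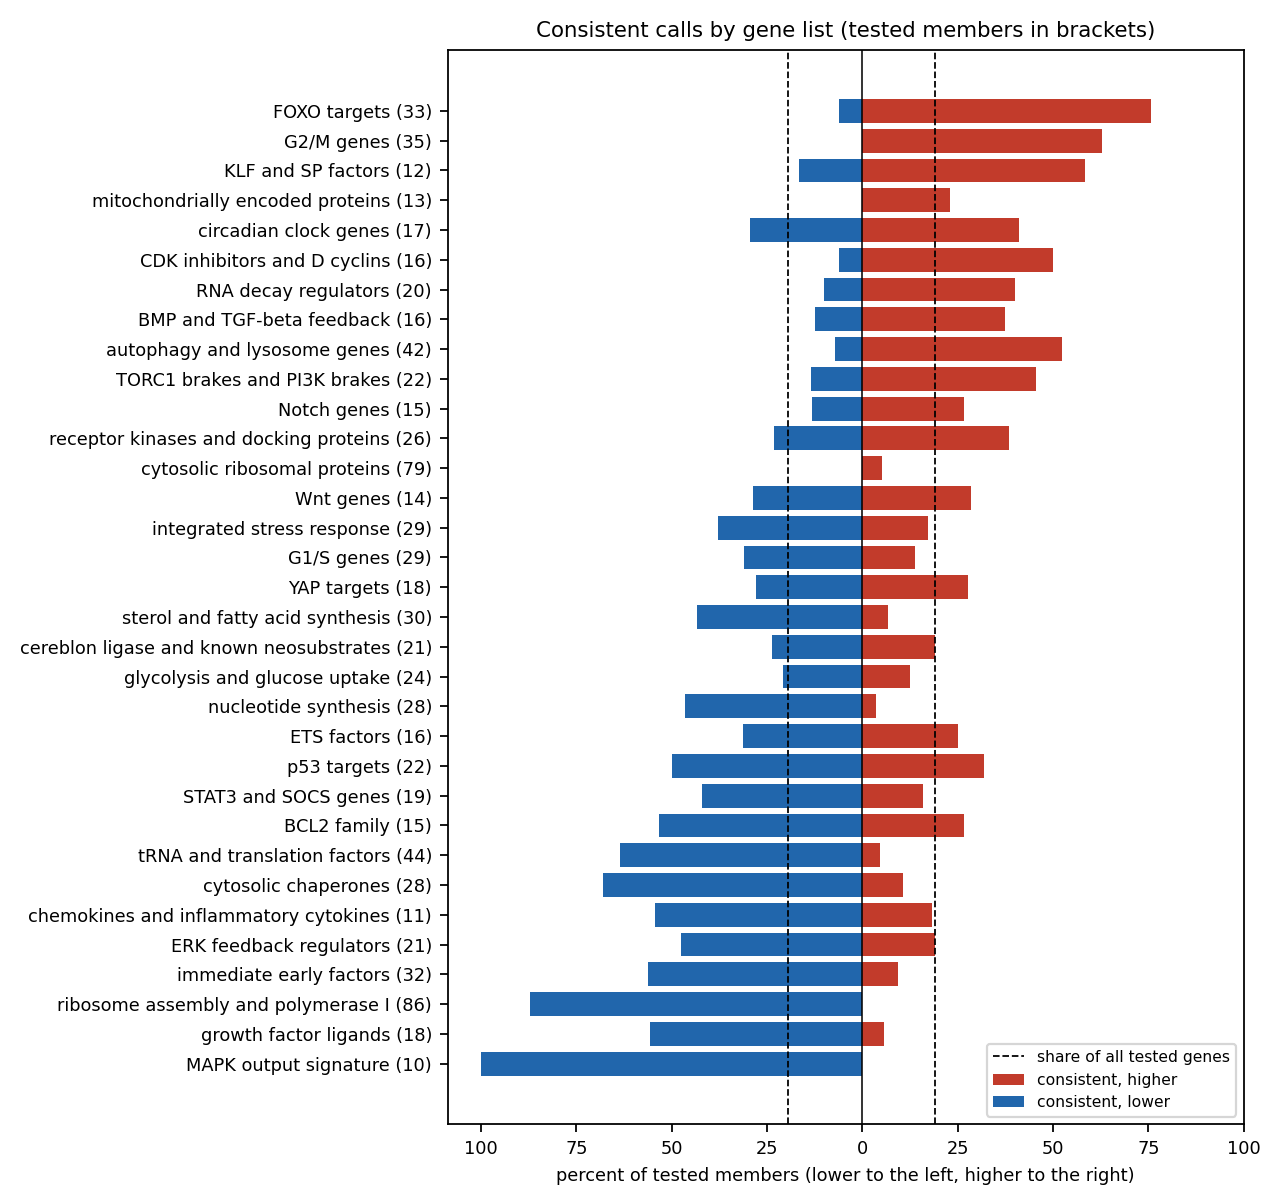
Share of the tested members of each gene list with at least 10 of them that rose (red, right) or fell (blue, left) consistently, ordered by the list's median pooled change, with the shares over all tested genes (19.0% and 19.4%) as dashed lines. The MAPK output, ribosome assembly, chaperone and tRNA lists extend far past the dashed line to the left, and the FOXO target and G2/M lists to the right.

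In the metabolic and stress lists, as in those after them, counts are set against the 19.0% of all tested genes that rose and the 19.4% that fell consistently. Sterol and fatty acid synthesis had 13 falls and 2 rises among 30 tested, FASN (-0.38, -0.19 and -0.44) among the falls. Glycolysis and glucose uptake had 5 falls and 3 rises among 24 (20.8% and 12.5%, close to or below those shares), with the hexokinase HK2 (-1.22, -0.72 and -0.67) furthest down and PDK2 (0.62, 0.71 and 0.26) furthest up. The integrated stress response had 11 falls and 5 rises among 29, CHAC1 (-1.05, -0.43 and -0.61) and TRIB3 (-0.81, -0.29 and -0.60) down and DDIT3 (0.34, 0.55 and 0.35) up. Of the 7 tested MondoA and arrestin domain genes TXNIP (0.32, 0.18 and 0.47) rose and ARRDC4 (-0.78, -0.73 and -0.64), MLX (-0.54, -0.56 and -0.33) and ARRDC3 (-0.41, -0.13 and -0.14) fell. The 13 mitochondrially encoded protein genes had 3 rises and 0 falls by the pooled limma test (6 and 0 at an unadjusted p under 0.05; median 0.19), with MT-CO1 at 0.15, 0.26 and 0.26.

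Among further signalling lists, STAT3 and SOCS genes had 8 falls and 3 rises in 19 tested. BCL3 (-1.67, -0.92 and -1.22) and SOCS3 (-1.80, -0.29 and -0.90) fell, and the kinase PIM1 (0.95, 0.80 and 1.12) and the receptor IL6R (0.45, 0.93 and 0.91) rose. Of 7 tested aryl hydrocarbon receptor genes 4 rose and 0 fell by limma (4 and 0 at an unadjusted p under 0.05), the cytochromes CYP1A1 (1.58, 2.52 and 0.65) and CYP1B1 (1.12, 0.96 and 0.27) furthest. CYP1A1 passed the TPM filter in some line through TRI-611 alone. BMP and TGF-beta feedback had 6 rises and 2 falls in 16, with ID2 (1.23, 1.67 and 0.68) and ID3 (0.87, 0.91 and 0.40) up and SMURF2 (-1.04, -0.44 and -0.39) down. Notch genes had 4 rises and 2 falls in 15, LFNG (1.72, 0.99 and 0.93) up and HES1 (-1.95, -0.53 and -0.27) down. YAP targets had 5 of each in 18, F3 (-1.80, -1.81 and -0.75) and FJX1 (-1.44, -1.31 and -0.33) furthest down. Wnt genes had 4 of each in 14, and FZD2 (1.08, 2.22 and 0.30) rose most.

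ETS factors had 4 rises and 5 falls in 16 tested, SPDEF (-0.49, -1.52 and -0.77) down and ELF3 and ELF1 (0.58, 0.84 and 0.46) up. KLF and SP factors had 7 rises and 2 falls in 12, and KLF16 (-1.69, -1.03 and -0.50) fell furthest. Clock genes had 7 rises and 5 falls in 17, with PER1 (1.43, 0.58 and 0.58) up and PER2 (-1.01, -0.45 and -0.35) down. RNA decay regulators had 8 rises and 2 falls in 20, BTG1 (1.54, 0.07 and 0.50) furthest up. Cereblon, the ligase receptor that many molecular glues use, and its ligase partners and known neosubstrates had 4 rises and 5 falls in 21 (19.0% and 23.8%, close to the shares of all tested genes). Within that list CRBN stood at 0.36, 0.34 and 0.09, IKZF2 at 0.65, 0.98 and 0.28 and GSPT1 at -0.31, -0.19 and -0.22, all consistent.

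Some genes changed by nearly the same amount in the 3 lines. ELF3 (ENSG00000163435, chromosome 1, 202007945 to 202017188, + strand), an ETS factor of epithelia, measured 138, 146 and 141 TPM with DMSO and 271, 270.2 and 274 TPM with TRI-611 in SNU2535, 99.5, 92.6 and 98.6 against 185, 185 and 172 TPM in NCI-H3122, and 57.3, 53.9 and 56.2 against 111, 103 and 112 TPM in NCI-H2228. All 9 TRI-611 libraries lay above the DMSO libraries of their line by a like factor, with TPM ratios of 1.91, 1.87 and 1.95. Its pooled change was 0.92, SE 0.0244, limma adjusted p = 1.27e-14, and the test of a difference in response between lines gave limma adjusted p = 0.731. By the ratio of smallest to largest line change, the other evenest rises of 0.5 or more were CDKN1B, the hedgehog coreceptor CDON (0.61, 0.68 and 0.59) and ZFYVE1 (1.08, 1.07 and 0.94). The evenest falls were the splicing factor SRSF7 (-0.69, -0.66 and -0.69), the endocytic protein EHD1 (-0.79, -0.70 and -0.75), the adenosine receptor ADORA1 (-1.09, -0.95 and -1.0) and the aldehyde dehydrogenase ALDH1B1 (-0.51, -0.60 and -0.57). For these 8 genes the test of the difference gave limma adjusted p-values from 0.452 (EHD1) to 0.933 (SRSF7). The genes, ELF3 included, were picked for even changes in these same libraries. High p-values therefore follow largely from the pick and do not show that the lines respond alike.

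The size of the response differed between lines for 3718 genes (28.2% of those tested) by limma's interaction test. Among consistent changes it differed for 790 rises (31.5%) and 1008 falls (39.3%). Among the core genes it did so for 45 of 78 rises and 76 of 97 falls. The falls were deepest in SNU2535 for 63 of these 97 genes, in NCI-H3122 for 33 and in NCI-H2228 for 1, and shallowest in NCI-H2228 for 71. Their median was -1.38, -0.99 and -0.67 in the 3 lines. The rises were largest in NCI-H3122 for 44 of 78, in SNU2535 for 26 and in NCI-H2228 for 8, with medians of 0.86, 1.03 and 0.74. Over all consistent rises the medians were 0.18, 0.32 and 0.16, and over all consistent falls -0.31, -0.22 and -0.16.

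Across the tested genes the changes in 2 lines correlated with r = 0.562 (rho 0.50) for SNU2535 and NCI-H3122, r = 0.506 (rho 0.472) for SNU2535 and NCI-H2228, and r = 0.510 (rho 0.515) for NCI-H3122 and NCI-H2228. These correlations run over 13186 genes, which are not independent replicates, and each line has its own DMSO libraries. The sign was shared by 8819, 8731 and 9058 genes in the 3 pairs of lines.

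The consistent changes with the widest gap between lines were DUSP6, DUSP5 and EGR1 among the falls and CYP1A1, FZD2 and ATOH8 among the rises. EGR1 (ENSG00000120738, chromosome 5, 138465490 to 138469315, + strand), an immediate early factor, measured 31.8, 29.4 and 65.2 TPM with DMSO and 14.4, 14.9 and 18.8 TPM with TRI-611 in SNU2535, 37.0, 39.7 and 37.4 against 4.56, 4.50 and 7.26 TPM in NCI-H3122, and 31.4, 33.3 and 35.0 against 32.5, 31.5 and 30.4 TPM in NCI-H2228. It fell strongly in NCI-H3122, overlapped between groups in NCI-H2228 and had 1 high DMSO library in SNU2535. The pooled change was -1.32, SE 0.281, limma adjusted p = 0.00110, the test of the difference gave limma adjusted p = 2.35e-04, and without NCI-H3122 the pooled limma adjusted p was 0.0508. ATOH8 (ENSG00000168874, chromosome 2, 85751344 to 85788066, + strand), a helix-loop-helix factor, measured 0.740, 0.901 and 0.974 TPM with DMSO and 2.46, 2.57 and 3.11 TPM with TRI-611 in SNU2535, 0.274, 0.289 and 0.322 against 5.48, 6.09 and 4.76 TPM in NCI-H3122, and 11.6, 10.2 and 12.0 against 14.4, 13.8 and 12.7 TPM in NCI-H2228 (1.18, SE 0.213, limma adjusted p = 2.26e-04; difference limma adjusted p = 5.09e-08). In SNU2535 and NCI-H3122 all DMSO values of ATOH8 lay below 1 TPM, so it passed the filter there through TRI-611 alone and its rise in those lines was in part a condition of entry.

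Only 52 genes passed each line's own test without 1 shared direction. PLPP3 (-0.59, 0.54 and -0.60), a lipid phosphatase, and the endothelial factor SOX18 (-0.66, 0.60 and -0.50) fell in SNU2535 and NCI-H2228 and rose in NCI-H3122. SOX18 passed the filter in some line through only 1 treatment. PLPP3 measured 49.5, 53.9 and 51.2 TPM with DMSO and 31.8, 34.6 and 35.3 TPM with TRI-611 in SNU2535, 3.38, 2.77 and 3.84 against 5.12, 5.49 and 5.23 TPM in NCI-H3122, and 57.9, 57.6 and 64.0 against 38.6, 38.7 and 40.4 TPM in NCI-H2228, with no overlap in any line. The lincRNA AP000692.2 (0.49, -0.57 and -0.51) rose in SNU2535 and fell in NCI-H3122 and NCI-H2228. None of these 3 was a pooled call by limma (adjusted p = 0.224, 0.351 and 0.299), since opposite changes cancel in a pooled value.

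The 3 rises and 3 falls of highest mean TPM with separate groups in every line were these. UBB (0.17, 0.10 and 0.09), the amyloid precursor APP (0.20, 0.13 and 0.09) and the aldehyde dehydrogenase ALDH3A1 (0.17, 0.45 and 0.15) rose. The actin gene ACTB (-0.12, -0.40 and -0.21), S100A16 (-0.05, -0.43 and -0.11) and the keratin KRT19 (-0.20, -0.15 and -0.25) fell. ACTB and UBB often serve as reference genes, and their pooled changes were -0.25, SE 0.0336, limma adjusted p = 1.29e-05 and 0.12, SE 0.0187, limma adjusted p = 4.77e-05.

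The protein-coding falls of 0.5 or more had a median gene span of 13.8 kb beside 44.0 kb for the rises and 32.0 kb over all tested protein-coding genes. Over all consistent changes the medians were 25.3 kb for falls and 44.8 kb for rises. Median mean TPM was 36.8 for the core falls and 13.5 for the core rises, 38.9 and 20.5 for all consistent falls and rises, and 20.7 over all tested genes, and TPM also enters the filter and the log2(TPM + 1) scale. These are descriptions without a test.

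Of the 20 core genes that were not protein coding, 8 rose and 12 fell. The falls included the snoRNA host genes SNHG15 (-1.60, -0.65 and -0.93) and SNHG17 (-1.17, -0.52 and -0.68), the snoRNAs SNORD100 and SNORD14E, and the pseudogene KRT16P2 (-2.00, -2.41 and -1.47). KRT16P2 is a copy of a keratin gene, so its reads may be shared with its source and its value is uncertain. The antisense transcript TNFRSF10A-AS1 fell (-1.86, -1.50 and -0.61) with the death receptor gene TNFRSF10A (-1.60, -1.70 and -0.58) that it overlaps. AC008115.3, which lies inside CDKN1B, rose by 0.76. Without a stated strand setting, reads of overlapping genes cannot be told apart, and reads of a host gene can count toward a small RNA within it.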

How the data were processed

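Poly-A RNA of 18 libraries (6 groups of 3) was sequenced with a library kit that adds molecular identifiers, per the labels' protocols. The authors deposited 1 table of TPM values for 57500 genes, 485 of them without a name, with every column summing to 1000000. The tools listed in the submitters' processing notes are STAR 2.5.2b, fastp 0.23.1, Subread 1.5.2 with featureCounts, and DESeq2, and the build is GRCh38. The annotation, strand setting, use of the identifiers and derivation of TPM were not given in the sources used here. TPM holds no read totals, so depth is unknown and no counting interval could be given.

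TPM was transformed to log2(TPM + 1), genes with 3 or more of 6 values at 1 TPM or above in every line were kept, and limma 3.58.1 in R 4.3.3 was fitted with line and treatment over the 18 libraries (empirical Bayes with trend and robust settings, two-sided, Benjamini-Hochberg over 13186 genes, threshold 0.05). Each line was also fitted alone, and the interaction of line and treatment in a fit of 6 groups tested whether lines responded unequally. Gene symbols are those of the table, and coordinates and gene types come from GENCODE release 29, which held 13150 of the tested genes. Named genes were ALK and EML4, the 12 largest rises and falls by smallest line change with groups apart in every line, up to 4 such members per list, the evenest and most uneven changes, opposed genes and the most abundant clear changes. Other list members, core genes and genes with printed promoters were named after their values were seen. A gene that the rule selects is not reported here. Members and lists were chosen with earlier results of these data known. The steps were tested on simulated data, and figures were drawn with matplotlib 3.10.9.

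The labels give a batch that equals the replicate number, which pairs samples across groups. Same-batch deviations from group means correlated weakly across genes (r from -0.102 to 0.0839 over the 9 pairs of DMSO and TRI-611 libraries). With 1 library of each group in a batch, a line could not be tested inside a batch. Alternatives were other pseudocounts, filters and scalings, the replicate block, other limma settings, and leaving out each library or line.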

Additional observations from a re-analysis of the deposited data

Results flagged for a closer look

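Among the named genes 8 consistent changes were flagged for a response that differed between lines by limma's interaction test. In these the gap between the most and least responsive line was also 2 or more on the log2 scale. Other genes were not screened by this rule. For EGR1 the gap was 2.55 (-1.25, -2.63 and -0.08 in SNU2535, NCI-H3122 and NCI-H2228; limma adjusted p = 2.35e-04). For DUSP5 it was 2.51 (-1.77, -3.05 and -0.54; limma adjusted p = 7.26e-10), and for DUSP6 2.5 (-4.24, -4.36 and -1.86; limma adjusted p = 1.80e-10). SPRY4 had a gap of 2.49 (limma adjusted p = 2.16e-11) and PHLDA1 of 2.42 (limma adjusted p = 2.79e-12). FOSL1 followed with 2.31 (limma adjusted p = 3.30e-10) and AREG with 2.30 (limma adjusted p = 2.24e-12). ATOH8, the 1 rise among them, had a gap of 2.05 (0.99, 2.31 and 0.26; limma adjusted p = 5.09e-08). All DMSO values of ATOH8 in SNU2535 and NCI-H3122 lay below 1 TPM, so its rise in those lines was in part a condition of passing the TPM filter. In each of the 8 genes NCI-H2228 changed least. On the log2(TPM + 1) scale the most responsive line was NCI-H3122 for EGR1, DUSP5, DUSP6, FOSL1, AREG and ATOH8, and SNU2535 for SPRY4 and PHLDA1. By TPM ratio DUSP6 fell further in SNU2535 than in NCI-H3122. DUSP6 and SPRY4 fell below 1 TPM in SNU2535 with TRI-611, and SPRY4 also in NCI-H3122, where log2(TPM + 1) understates the change.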

How the results depend on the processing

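Pooled and consistent counts stayed within 1.5 times of 5676 and 5068 under every alternative but a minimum change of 0.5 in the smallest line, which left 176 pooled and 175 consistent calls (78 higher, 97 lower), 160 calls in every line (71 and 89) and 126 calls of a response difference. With the replicate block consistent calls numbered 5011 (batch) or 4521 (line by batch) and calls in every line 1018, and among named genes with a pooled call the replicate block (line by batch) ended that of ALK only. Calls in every line depended on more settings than pooled calls. They fell to 249 (75 higher, 174 lower) without the TPM filter, 534 (170 and 364) at adjusted p under 0.01 and 705 (211 higher) by the largest of 3 one-sided p-values, and rose to 2340 (949 and 1391) without NCI-H2228. Higher calls were 630 without SNU2535, and lower calls 466 without the trend and robust settings. Leaving out 1 library gave 792 to 1068 calls in every line, of them 253 (without NCI-H2228 DMSO replicate 2) to 392 higher and 520 to 692 lower. Response differences numbered 1947 without SNU2535, 1555 without NCI-H3122 and 2165 at adjusted p under 0.01. Without 1 library the mitochondrial difference ran from 0.787 to 1.48 points, and passed the exact permutation test without SNU2535 DMSO replicate 1 (p = 0.027), NCI-H3122 DMSO replicate 2 (p = 0.04075), NCI-H3122 TRI-611 replicate 2 (p = 0.03575) or NCI-H2228 DMSO replicate 2 (p = 0.0375). EML4 turned to 0.0044 without SNU2535. Of 148 named genes with a pooled test 145 kept direction and call under every alternative, and ALK and EGR1 lost calls. List medians changed sign under some alternative in 9 of 35 lists: ETS factors, receptor kinases, MondoA, G1/S, integrated stress response, Notch, YAP, Wnt and cereblon. The causes of these shifts were not tested beyond what each setting itself removes. With depth unknown, the precision of low TPM values could not be estimated.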
